A study of Mus musculus with 14 samples.

Results

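Pparg encodes PPARγ, a nuclear receptor that binds fatty acids and their derivatives. Its level and those of 4 of its known macrophage target genes, Fabp4, Cd36, Plin2 and Acaa2, were followed over 14 microarrays of mouse macrophages. The 5 genes were taken by their symbol in the platform annotation of the deposited value table, and each had 1 probe, so 5 of 10012 probes are described. All 5 passed the filter on low values that left 9584 probes for testing. PPARγ pairs with RXR on DNA, and agonists raise genes of fatty acid uptake, storage and oxidation through it. In macrophages it is known for lipid loading and for restraining inflammatory genes. Fabp4 (also called aP2) is a cytosolic fatty acid carrier, Cd36 is a scavenger receptor that takes up oxidised lipoprotein and fatty acids, Plin2 (also called ADRP) coats lipid droplets, and Acaa2 is the thiolase that ends a round of mitochondrial fatty acid oxidation.

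The cells were thioglycollate-elicited peritoneal macrophages of female C57BL/6 mice aged 6 weeks, without a genetic change in any group. The 7 groups of 2 arrays each were GW7845 with LPS, GW3965 with LPS, LPS alone, GW7845 with poly(I:C), GW3965 with poly(I:C), poly(I:C) alone, and no treatment. GW7845 activates PPARγ, and GW3965 activates the liver X receptors (LXRs), nuclear receptors for oxysterols. LPS is a bacterial ligand of TLR4 and poly(I:C) a double-stranded RNA analogue that acts through TLR3. Neither agonist was given by itself. The labels state no dose and no time, so the agonists are compared only at the single unstated dose of each. The series title asks how far PPARγ and LXRs differ in repressing Toll-like receptor responses.

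Each array's values were deposited at a median intensity of 1, so 0 on the log2 scale used below is the median probe of an array. Precision is limited by having 2 arrays in a group. Clustering the arrays by which probes had no value split them into 2 sets of 7, set A and set B, with 1 array of each group in each set. The sets were taken from these data and not from the labels. Set A was named as the one with the higher dim end, with a 10th percentile of 0.137 to 0.271 against 0.0549 to 0.0833 in set B. The set is given with each value. Whether it also marks separate cell preparations is not known. Within groups, the arrays correlated with a Spearman's rho of 0.929 to 0.966. Il6 and Cxcl10, which Toll-like receptor ligands induce, were 10.88 and 10.51 higher on the log2 scale with LPS, and the LXR target Abcg1 was 2.34 higher with GW3965 averaged over both stimuli (limma adjusted p = 1.3e-08, 3e-08 and 0.0029). Among macrophage markers, Lyz2 lay between 998 and 1939 in intensity on all 14 arrays and Cd14 between 50.5 and 837, while Fcgr1 did not exceed 0.347. Of 4 measured adipocyte markers, the defining Adipoq did not exceed 0.484, Lipe 0.577 and Retn 0.936 on any array, all below the array median, and Slc2a4 lay around it, between 0.577 and 1.21.

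These 4 promoters are shown because the receptor gene and its targets can carry the hexamer AGGTCA, the half-site on which PPARγ, RXR and LXR bind. They come from RefSeq on the build GRCm38.p6, whose promoter entries were used for 3 of the 5 genes, and only the 250 bases before each start site are printed, in the direction of transcription. Capitals mark AGGTCA or its reverse complement TGACCT. The first start of Pparg has chr6:115360894-115361143 on the plus strand before it, and the second has chr6:115362099-115362348 on the plus strand. The Plin2 window is chr4:86670060-86670309 and the Cd36 window chr5:17835897-17836146, both on the minus strand.
Pparg, first start: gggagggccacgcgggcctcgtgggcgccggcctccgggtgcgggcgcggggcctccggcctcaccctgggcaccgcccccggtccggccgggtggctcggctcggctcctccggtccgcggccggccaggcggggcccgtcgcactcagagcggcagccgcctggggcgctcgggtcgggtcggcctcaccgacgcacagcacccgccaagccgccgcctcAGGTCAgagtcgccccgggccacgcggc
Pparg, second start: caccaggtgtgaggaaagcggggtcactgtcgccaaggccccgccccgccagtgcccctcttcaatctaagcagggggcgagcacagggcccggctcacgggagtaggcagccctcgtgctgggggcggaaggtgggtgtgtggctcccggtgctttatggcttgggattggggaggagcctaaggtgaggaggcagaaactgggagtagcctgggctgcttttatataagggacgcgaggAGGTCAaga
Plin2: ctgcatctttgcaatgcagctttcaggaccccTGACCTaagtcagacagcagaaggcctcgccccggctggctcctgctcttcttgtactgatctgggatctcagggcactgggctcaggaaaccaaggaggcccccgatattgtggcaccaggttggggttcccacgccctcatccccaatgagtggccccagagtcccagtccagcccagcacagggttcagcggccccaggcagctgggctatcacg
Cd36: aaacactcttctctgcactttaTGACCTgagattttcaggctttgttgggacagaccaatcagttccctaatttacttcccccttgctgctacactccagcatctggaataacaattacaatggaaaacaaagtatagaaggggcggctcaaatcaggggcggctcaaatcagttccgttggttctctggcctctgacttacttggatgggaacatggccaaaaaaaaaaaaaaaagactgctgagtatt
The hexamer began 28 and 9 bases before the first and second starts of Pparg, 218 bases before that of Plin2 and 228 bases before that of Cd36. Another Pparg start, at position 115422066 on chromosome 6, had none in its window. Counted over whole entries of 300 bases, which add 50 bases after the start, 4 of these 5 held it on either strand, whereas 5340 of all 32851 entries (16.3%) did. Most of these 5 were of Pparg, and none was of Fabp4 or Acaa2. PPARγ with RXR prefers 2 such half-sites in a row with 1 base between them (AGGTCANAGGTCA, called DR1), and LXR with RXR prefers 4 bases between them (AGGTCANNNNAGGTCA, called DR4). The exact DR1 occurred in 13 and the exact DR4 in 5 of all whole entries on either strand, and in 0 of the 5 entries of these genes. A DR1 or DR4 match also counts as a half-site match. These matches describe letters in a short window only.

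Pparg mRNA fell with both stimuli and stayed low with either agonist added. Pparg lies on chromosome 6 from 115360879 to 115490404 (GRCm38.p6). With GW7845 and LPS its log2 intensity was 0.15 in set A and 0.04 in set B, with GW3965 and LPS 1.36 and 1.29, and with LPS alone 0.04 and 0.42. With GW7845 and poly(I:C) it was 0.79 in set A and 0.41 in set B, with GW3965 and poly(I:C) 1.93 and 0.83, and with poly(I:C) alone 0.36 and 0.49. Untreated cells had 4.30 and 4.47. The 2 untreated arrays stood above all 12 stimulated arrays, whose median was 0.46 and whose highest value was 1.93. The Pparg probe thus lay well above the array median in untreated cells and near it in stimulated cells.

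With LPS, Pparg fell by 4.16 on the log2 scale (SE 0.39, limma adjusted p = 7.8e-06), a 17.9-fold lower level, and with poly(I:C) the difference was -3.96 (SE 0.39, adjusted p = 1.1e-05), a 15.6-fold lower level. The differences within sets were -4.26 and -4.05 for LPS and -3.94 and -3.98 for poly(I:C). Of all probes tested, 7.8% were called with LPS and 8.86% with poly(I:C), where a probe is called when its Benjamini-Hochberg adjusted p over all 9584 probes is under 0.05. Poly(I:C) and LPS differed by 0.20 for Pparg (95% interval -0.64 to 1.03, adjusted p = 1), in a comparison that called 0.0104% of probes. In such bulk RNA, fewer cells of a type and less RNA per cell cannot be told apart.

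**Figure D1:**
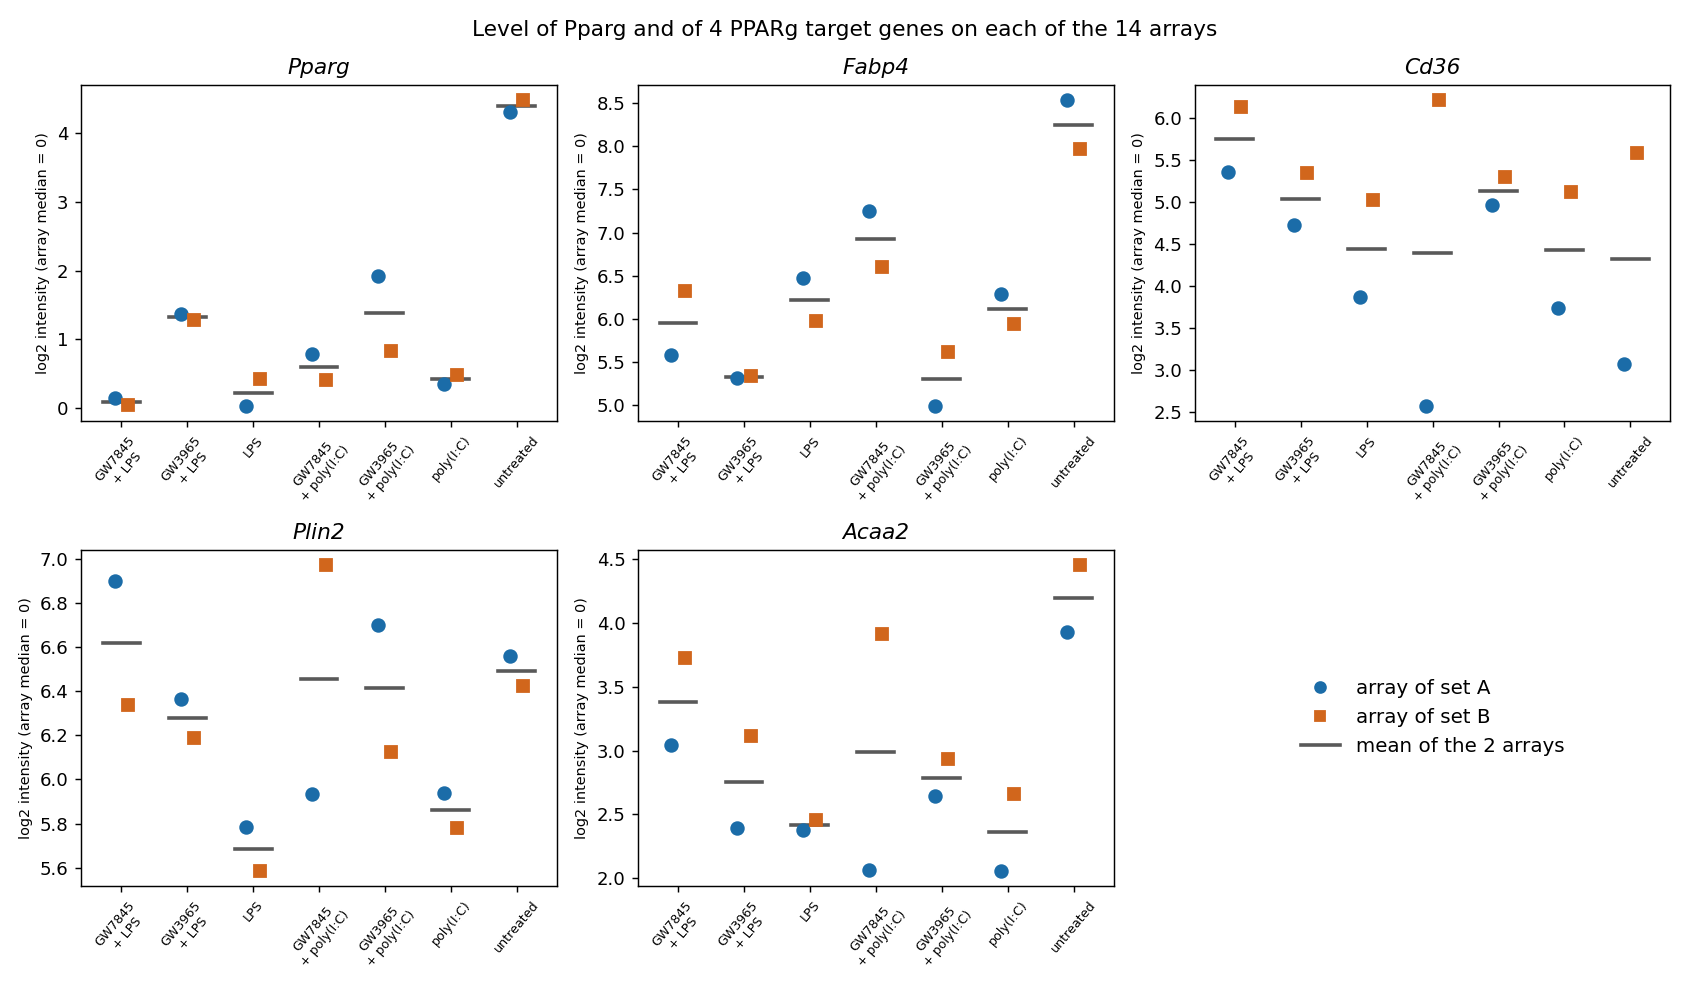
Log2 intensity (array median 0) of each of the 5 genes on each array, with set A as circles, set B as squares and the mean of the 2 arrays of a group as a bar. Both untreated arrays of Pparg (4.30 and 4.47) and of Fabp4 (8.54 and 7.97) lie above all 12 stimulated arrays, while the Cd36 points of set A lie below those of set B in 7 of 7 groups.

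Fabp4, the fatty acid carrier, fell with both stimuli too and remained a bright probe. It lies on chromosome 3 from 10204342 to 10208616. With GW7845 and LPS it had 5.57 in set A and 6.32 in set B, with GW3965 and LPS 5.32 and 5.34, and with LPS alone 6.47 and 5.97. With GW7845 and poly(I:C) it had 7.25 and 6.60, with GW3965 and poly(I:C) 4.99 and 5.62, with poly(I:C) alone 6.29 and 5.94, and without treatment 8.54 and 7.97. The untreated arrays were again above all 12 stimulated ones, the highest of which was 7.25 on the set A array of GW7845 with poly(I:C). The difference was -2.03 with LPS (SE 0.41, limma adjusted p = 0.0058), a 4.09-fold lower level, and -2.14 with poly(I:C) (SE 0.41, adjusted p = 0.0035), or 4.41-fold. The call for LPS was lost without the array LPS 2 (difference -1.79, adjusted p = 0.068), without untreated 1 (-1.75, 0.058), or when only these 2 groups were fitted (0.12), and that for poly(I:C) only in the last of these fits (0.098).

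Acaa2, the thiolase, was lower after both stimuli, and whether it was called depended on the array sets and on single arrays. It is annotated on chromosome 18. Its log2 intensity was 3.04 and 3.72 in sets A and B with GW7845 and LPS, 2.39 and 3.12 with GW3965 and LPS, and 2.38 and 2.46 with LPS alone. It was 2.07 and 3.91 with GW7845 and poly(I:C), 2.64 and 2.93 with GW3965 and poly(I:C), 2.06 and 2.66 with poly(I:C) alone, and 3.93 and 4.46 without treatment. Set A was lower than set B in 7 of 7 groups, and the highest stimulated array (3.91) lay just below the lower untreated one (3.93). Acaa2 differed by -1.78 with LPS (SE 0.52, limma adjusted p = 0.053) and fell by 1.83 with poly(I:C) (SE 0.52, adjusted p = 0.041). With the set as a block the adjusted p was 0.0021 and 0.0016, in fits that called 17.8% and 18.7% of probes. The call for poly(I:C) in the fit without the block was lost on leaving out any 1 of the 4 arrays, with an adjusted p of 0.068 to 0.23. Leaving out GW7845 + poly(I:C) 1, an array of neither comparison that enters only the estimate of the spread, gave the same differences with an adjusted p of 0.0091 with LPS and 0.0068 with poly(I:C), where 8.55% and 9.64% of probes were called.

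Plin2, the droplet coat protein, was lower with both stimuli by less than the test required. It lies on chromosome 4 from 86626910 to 86670217. Its log2 intensity was 6.90 and 6.34 in sets A and B with GW7845 and LPS, 6.37 and 6.19 with GW3965 and LPS, and 5.79 and 5.59 with LPS alone. It was 5.94 and 6.97 with GW7845 and poly(I:C), 6.70 and 6.12 with GW3965 and poly(I:C), 5.94 and 5.78 with poly(I:C) alone, and 6.56 and 6.42 without treatment. The arrays of either stimulus alone lay below both untreated arrays, and those with an agonist spread around them. The difference from untreated cells was -0.80 with LPS (SE 0.40, limma adjusted p = 0.33) and -0.63 with poly(I:C) (SE 0.40, adjusted p = 0.50). With the set as a block and without the array GW7845 + poly(I:C) 1 the difference with LPS passed the test (adjusted p = 0.030) in a fit that called 18.6% of probes.

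Cd36, the scavenger receptor, was lower on set A than on set B whatever the treatment and was not called with either stimulus. It lies on chromosome 5 from 17781690 to 17888959. Its log2 intensity was 5.36 and 6.13 in sets A and B with GW7845 and LPS, 4.72 and 5.35 with GW3965 and LPS, and 3.87 and 5.02 with LPS alone. It was 2.57 and 6.21 with GW7845 and poly(I:C), 4.97 and 5.30 with GW3965 and poly(I:C), 3.74 and 5.12 with poly(I:C) alone, and 3.07 and 5.58 without treatment. Set A was lower in 7 of 7 groups, by 0.33 to 3.64, and stimulated and untreated arrays overlapped. The difference was 0.12 with LPS (95% interval -1.98 to 2.22) and 0.11 with poly(I:C) (-1.99 to 2.20). A change within these bounds was not excluded by the fit without a block. With LPS it was 0.80 within set A and -0.56 within set B, and with poly(I:C) 0.67 and -0.46.

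**Figure D2:**
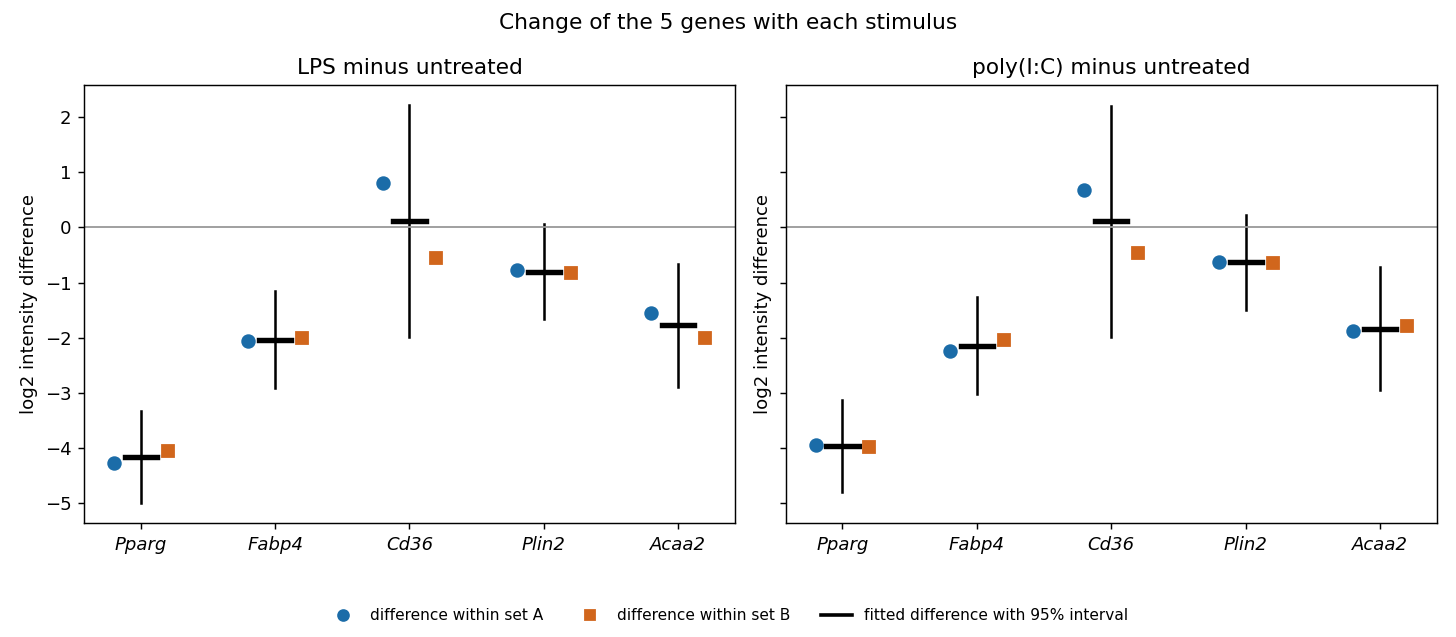
Log2 intensity difference of each gene with LPS and with poly(I:C) from untreated cells, as the fitted difference (bar) with its 95% interval (line) and the differences within set A (circles) and set B (squares). Pparg, Fabp4, Plin2 and Acaa2 lie below 0 in both sets and with both stimuli, and Cd36 lies above 0 in set A and below 0 in set B.

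Averaged over both stimuli, the differences were -4.06 for Pparg (limma adjusted p = 1.6e-06), -2.09 for Fabp4 (0.0011) and -1.81 for Acaa2 (0.017), all called, and 11.4% of all probes were called. With the set as a block, the same 3 genes were called among 22.9% of probes. The call of Acaa2 was lost without the array untreated 2 (adjusted p = 0.15) and in a fit without the intensity trend (0.05).

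In order of level, the lowest group mean of Pparg was that of GW7845 with LPS (0.10), followed by LPS (0.23), poly(I:C) (0.42), GW7845 with poly(I:C) (0.60), GW3965 with LPS (1.32), GW3965 with poly(I:C) (1.38) and untreated cells (4.39). Apart from untreated cells, the arrays of neighbouring groups overlapped except between GW7845 with poly(I:C) and GW3965 with LPS. For Fabp4 the order was GW3965 with poly(I:C) (5.30), GW3965 with LPS (5.33), GW7845 with LPS (5.95), poly(I:C) (6.11), LPS (6.22), GW7845 with poly(I:C) (6.92) and untreated cells (8.25). There the arrays of neighbouring groups overlapped except around GW7845 with poly(I:C) and between GW7845 with LPS and GW3965 with LPS. For Acaa2 it was poly(I:C) (2.36), LPS (2.42), GW3965 with LPS (2.75), GW3965 with poly(I:C) (2.79), GW7845 with poly(I:C) (2.99), GW7845 with LPS (3.38) and untreated cells (4.19), and all neighbours below untreated cells overlapped. Plin2 was lowest with LPS (5.69) and poly(I:C) (5.86) and highest with GW7845 and LPS (6.62), above untreated cells (6.49), and poly(I:C) stood apart from the group above it, GW3965 with LPS (6.28). Cd36 was highest with GW7845 and LPS (5.74), which stood apart from the next group, GW3965 with poly(I:C) (5.13), and lowest in untreated cells (4.33).

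Summed macrophage markers (8 of 10 listed measured) ranged from 1380 to 2778 in intensity on stimulated arrays and were 1143 and 1950 on untreated arrays. Lyz2 (998 to 1939) made up most of this sum, which hardly reflects the other markers. Summed adipocyte markers (4 of 9) ranged from 0.944 to 2.39 on stimulated arrays and were 0.808 and 0.927 on untreated arrays. These are dim signals, with Adipoq, Lipe and Retn below the array median on every array and Slc2a4 around it, so the sum says little about adipocyte content. Summed neutrophil markers (5 of 7) were 2.22 to 8.58 on stimulated arrays, against 1.13 and 2.04 on untreated arrays. Camp, the cathelicidin gene, was the 1 of these 5 that was called, 4.59 higher with LPS and 4.71 with poly(I:C) (limma adjusted p = 0.00011 and 7.8e-05), while 3 of the 5 lay below 0 with either stimulus and the median was -0.05 and -0.54. The part of these other cells in the falls of Pparg, Fabp4 and Acaa2 was not tested.

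GW7845 added to a stimulus called none of the 5 genes and 0% of all probes with LPS, with poly(I:C) or averaged over both, while 161 probes had an unadjusted p under 0.05 in the averaged comparison. The values of the target genes were nevertheless mostly above those of the stimulus alone. Plin2 averaged 0.76 higher (95% interval 0.15 to 1.37, limma unadjusted p = 0.018, adjusted p = 1), Acaa2 0.80 higher (0.01 to 1.59, 0.048, 1) and Cd36 0.63 higher (-0.85 to 2.12, 0.38, 1). Fabp4 differed by 0.27 (-0.36 to 0.89) and Pparg itself by 0.02 (-0.57 to 0.61).

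For Cd36, GW7845 with LPS was above LPS by 1.49 in set A and 1.11 in set B, and the difference of GW7845 with poly(I:C) from poly(I:C) was -1.16 in set A and 1.09 in set B. For Plin2 the differences with LPS were 1.11 and 0.75, and with poly(I:C) both arrays of set A had 5.94 while the set B difference was 1.19. For Acaa2 they were 0.67 and 1.27 with LPS, and 0.01 and 1.25 with poly(I:C). All 3 genes were therefore higher in 3 of 4 matched pairs by 0.67 or more, and the exception was the same array in each, GW7845 + poly(I:C) 1. Fabp4 did not share this pattern: its differences were -0.89 and 0.34 with LPS and 0.96 and 0.66 with poly(I:C), largest for the array that was the exception for the other targets. The Pparg differences were 0.12, -0.38, 0.43 and -0.08.

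The array GW7845 + poly(I:C) 1 had an SD over probes of 0.720 about the median of its set's other stimulated arrays, and 22 of its probes were at least 4-fold above the rest of the set. GW3965 + LPS 1 deviated more (0.808), and the other stimulated arrays of set A had 0.612 to 0.650. Without GW7845 + poly(I:C) 1 and with the set as a block, GW7845 averaged over both stimuli was above the stimuli by 1.26 for Cd36 (SE 0.32, limma adjusted p = 0.36), 1.10 for Plin2 (SE 0.19, 0.096) and 1.14 for Acaa2 (SE 0.20, 0.096). Acaa2 and Plin2 then ranked 5 and 6 of 9584 probes by p, and Cd36 ranked 41. With all arrays and the block they ranked 95, 98 and 1613, in a fit that called 0.0104% of probes. None of the 3 passed the test in any of these fits, and leaving out this array was chosen with earlier results of these data known, so the ranks are a description. Without the other array of that group, GW7845 + poly(I:C) 2, the averaged differences were -0.28 for Cd36, 0.50 for Plin2 and 0.34 for Acaa2.

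**Figure D3:**
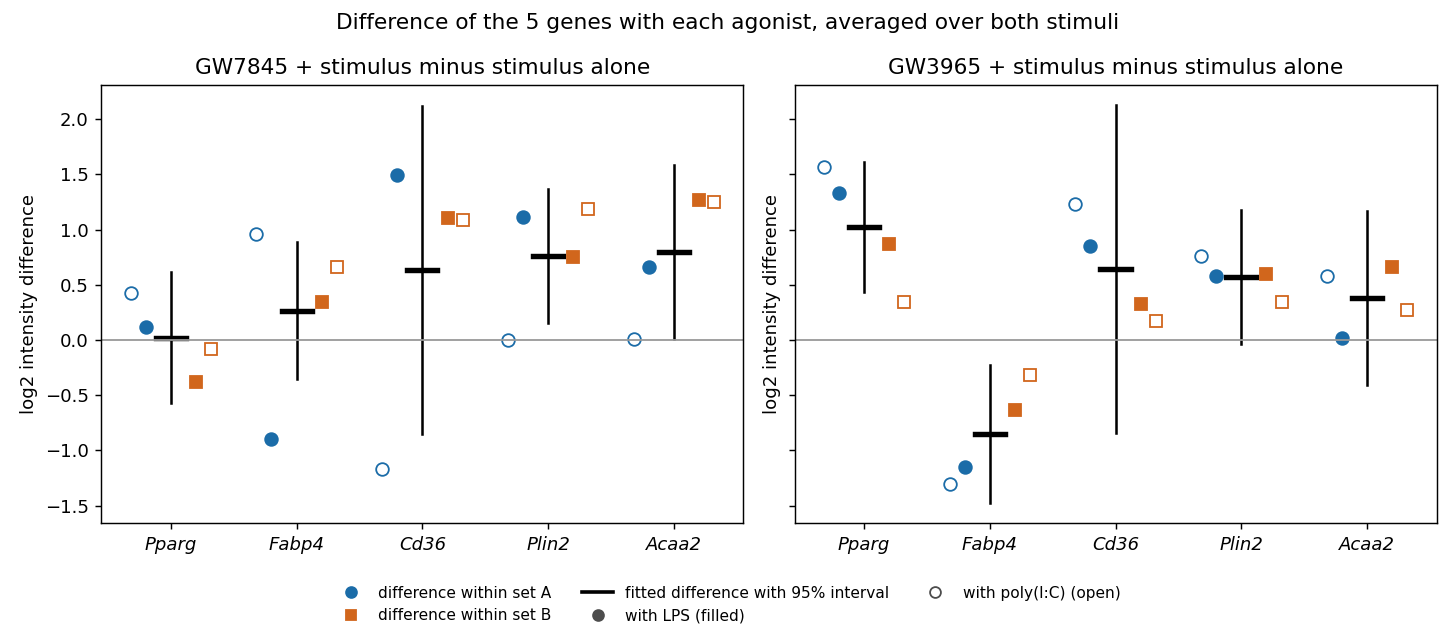
Log2 intensity difference of each gene with GW7845 (left) and GW3965 (right) from the stimulus alone, as the difference averaged over both stimuli (bar) with its 95% interval (line) and the differences within each set and stimulus (circles set A, squares set B, filled LPS, open poly(I:C)). In the left panel the open circle, GW7845 + poly(I:C) 1, is the lowest point for Cd36, Plin2 and Acaa2, and in the right panel all 4 points lie above 0 for Pparg and below 0 for Fabp4.

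With GW3965, Pparg was higher and Fabp4 lower than with the stimulus alone in 4 of 4 matched pairs each, by differences that were not called in the fit of all arrays without a block. Pparg was 1.03 higher averaged over both stimuli (SE 0.27, 95% interval 0.44 to 1.62), or 2.04-fold, with an unadjusted p of 0.0023 in limma that adjustment over all probes raised to 0.37. The comparison called 0.198% of probes. The differences were 1.33 in set A and 0.87 in set B with LPS, and 1.57 and 0.34 with poly(I:C), and the 4 arrays with GW3965 (0.83 to 1.93) did not overlap the 4 of the stimuli alone (0.04 to 0.49). With the set as a block the adjusted p was 0.056 where 1.15% of probes were called. It was 0.048 when GW7845 + poly(I:C) 1 was also left out, although that array enters only the estimate of the spread, and 1.64% of probes were called. Even at its highest, Pparg with GW3965 stayed 2.37 or more below the untreated array of its set.

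Fabp4 differed by -0.85 with GW3965 averaged over both stimuli (SE 0.29, 95% interval -1.48 to -0.23, limma adjusted p = 0.73, and 0.14 with the set as a block). The differences were -1.15 in set A and -0.64 in set B with LPS, and -1.30 and -0.32 with poly(I:C). Plin2 was above the stimulus alone in 4 of 4 pairs, by 0.57 on average (-0.04 to 1.18), as was Cd36, by 0.65 (-0.84 to 2.13), and Acaa2, by 0.38 (-0.41 to 1.17). None of the 5 genes was called with either stimulus taken alone, where 0.0313% of probes were called with LPS and 0.0104% with poly(I:C). Leaving out each array of the compared groups in turn kept the averaged Pparg difference between 0.75 and 1.30 and that of Fabp4 between -1.01 and -0.69, none of them called.

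Macrophage markers and the endothelial marker Kdr lay lower in the same comparison. All 8 measured macrophage markers lay below 0 with GW3965 averaged over both stimuli, none called, at a median of -0.31 against -0.04 for all probes. Of 3 measured endothelial markers, Kdr, a receptor for vascular endothelial growth factor, was called, at -1.51 (limma adjusted p = 0.018, and 0.00079 with the set as a block). The summed endothelial markers (3 of 4 listed) were 2.04 to 4.70 in intensity with GW3965, against 6.64 to 8.35 with the stimuli alone and 3.61 and 4.45 in untreated cells. This sum was mostly Kdr (1.70 to 7.63 over all arrays), since Pecam1 and Tek did not exceed 0.464 and 0.431 on any array. It therefore adds little to the Kdr difference. The part of these markers in the Pparg and Fabp4 differences was not tested.

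GW7845 and GW3965 were compared directly in 3 comparisons over the 5 genes, each adjusted over all probes. Averaged over both stimuli, Pparg was lower with GW7845 than with GW3965 (difference -1.0, SE 0.27, limma adjusted p = 0.58) and Fabp4 was 1.12 higher (SE 0.29, adjusted p = 0.46, and 0.074 with the set as a block). Both differences had the same sign in both sets and with both stimuli. Fabp4 had 7.25 and 6.60 with GW7845 and poly(I:C), against 4.99 and 5.62 with GW3965 and poly(I:C), a 3.07-fold difference with an adjusted p of 0.86. The agonists differed by -0.01 for Cd36 (-1.5 to 1.47), 0.19 for Plin2 (-0.42 to 0.80) and 0.41 for Acaa2 (-0.37 to 1.20), intervals that leave differences in either direction possible. Of all probes, 0.0104% were called between the agonists with LPS, 0.0417% with poly(I:C) and 0.104% in the average.

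The agonist differences were not shown to depend on the stimulus. The GW7845 difference with poly(I:C) minus that with LPS was 1.09 for Fabp4 (95% interval -0.16 to 2.33, limma adjusted p = 1), -1.34 for Cd36 (-4.31 to 1.63) and between -0.34 and 0.30 for the other 3 genes. For GW3965 it lay between -0.14 and 0.11 for all 5 genes. Both of these comparisons called 0% of probes.

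Against untreated cells, Pparg remained lower in each of the 4 groups that received an agonist and a stimulus. The difference was -4.29 with GW7845 and LPS (limma adjusted p = 7.3e-06), -3.79 with GW7845 and poly(I:C) (2.1e-05), -3.06 with GW3965 and LPS (0.000205) and -3.01 with GW3965 and poly(I:C) (0.00019). Fabp4 fell in 3 of them, at -2.31 with GW7845 and LPS (0.0027), -2.93 with GW3965 and LPS (0.00044) and -2.95 with GW3965 and poly(I:C) (0.00036), and differed by -1.33 with GW7845 and poly(I:C) (0.072). That difference was called too with the set as a block (adjusted p = 0.015). These comparisons called 6.55% of probes for GW7845 and LPS, 7.54% for GW7845 and poly(I:C), 6.06% for GW3965 and LPS and 6.63% for GW3965 and poly(I:C). All 4 share the untreated arrays with each other and with the comparisons of the stimuli.

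Acaa2 was lower and Plin2 near its level without treatment in these groups. Acaa2 differed from untreated cells by -0.81 with GW7845 and LPS, -1.20 with GW7845 and poly(I:C), -1.44 with GW3965 and LPS and -1.41 with GW3965 and poly(I:C), none called in the fit of all arrays without a block. Without GW7845 + poly(I:C) 1 the values for GW3965 passed the test, with an adjusted p of 0.039 with LPS and 0.041 with poly(I:C), among 7.02% and 7.59% of probes. With the set as a block it was called in all of these but GW7845 with LPS, where 17.6% of probes were called. In the other 3 the block called 16.6%, 16.5% and 17.3% of probes, for GW7845 with poly(I:C), GW3965 with LPS and GW3965 with poly(I:C) in that order. Without GW7845 + poly(I:C) 1 as well, the fit called 4 of the 5 genes for GW7845 and LPS among 18.7% of probes, with Cd36 1.42 higher (limma adjusted p = 0.024) and Acaa2 at -0.81 (0.036). That array is outside this comparison and enters only the estimate of the spread, and it held the lowest Cd36 value of all (2.57). With all arrays, 2 of the 5 genes were called here, and Cd36 was not. Cd36 had 5.36 and 6.13 in sets A and B with GW7845 and LPS, against 3.07 and 5.58 without treatment. Plin2 differed by 0.13 with GW7845 and LPS, -0.04 with GW7845 and poly(I:C), -0.21 with GW3965 and LPS and -0.08 with GW3965 and poly(I:C).

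In the wider list of PPARγ targets, only Cebpa and Ech1 were called with a stimulus beside Fabp4 and Acaa2 in the fit without a block. Of 34 known PPARγ targets listed, 23 were tested. The tested ones include Fabp4, Cd36, Plin2 and Acaa2, which were chosen with earlier results of these data known, so the counts are not separate from these genes. With LPS, 0 rose and 3 fell, and with poly(I:C) 0 rose and 4 fell, at a list median of -0.20 and -0.04 against 0.06 and 0.10 for all probes. Of all probes, 7.8% were called with LPS and 8.86% with poly(I:C). Here and for the lists below these shares pool both directions: 499 called probes rose and 249 fell with LPS, and 583 rose and 266 fell with poly(I:C). Beside Fabp4 these were Cebpa, the adipogenic and myeloid factor C/EBPα, at -2.33 and -3.09 (limma adjusted p = 0.004 and 0.00038), Ech1, an isomerase of unsaturated fatty acid oxidation, at -1.33 and -1.35 (0.013 and 0.011), and with poly(I:C) Acaa2. Lpl, the lipoprotein lipase, differed by -0.20 with LPS (adjusted p = 0.94), and Fabp5, another fatty acid carrier, by -0.23 (0.95). No listed target was called without a block with GW7845 or with GW3965 averaged over both stimuli, with medians of 0.23 and -0.09 against -0.01 and -0.04 for all probes.

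Among 21 tested genes of the PPAR and RXR family with their coregulators, 1 rose and 4 fell with LPS, and 1 rose and 3 fell with poly(I:C), where 7.8% and 8.86% of all probes were called. Pparg fell most, and Cebpa, counted in both lists, has been given. Rxrg, the RXR isotype with the narrowest tissue range, fell, at -1.81 with LPS and -1.5 with poly(I:C) (limma adjusted p = 0.0036 and 0.012). It had 1.03 and 1.21 with LPS and 1.79 and 1.06 with poly(I:C), against 2.86 and 3.0 in untreated cells. Ppargc1b, a coactivator of mitochondrial genes, fell by 1.91 with LPS alone (adjusted p = 0.043). The riser was Cebpb, the inflammation-induced factor C/EBPβ, by 1.93 and 2.17 (0.0055 and 0.0021). The other PPAR isotypes were not called, with Ppara at 0.60 and 0.48 and Ppard at 0.04 and -0.27, nor were Rxra at 0.21 and 0.11 and Rxrb at -0.39 and -0.67.

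In fatty acid uptake and binding, 16 genes were tested, of which 2 rose and 1, Fabp4, fell with either stimulus, beside 7.8% of all probes called with LPS and 8.86% with poly(I:C). Fabp3, the carrier best known from heart muscle, had 8.09 and 7.01 with LPS and 8.38 and 7.26 with poly(I:C), against 4.85 and 3.42 in untreated cells. It thus moved opposite to Fabp4, higher by 3.41 and 3.69 (limma adjusted p = 0.0028 and 0.0014). Msr1, the scavenger receptor A, rose by 1.34 and 1.25 (0.028 and 0.037). In the lipid droplet list of 14 tested genes, 2 fell with either stimulus, beside the same shares of all probes: Lpin1, the phosphatidate phosphatase that also coactivates PPARs, at -4.32 and -4.37 (0.00011 and 9.1e-05), and Plin3, a droplet coat protein of the Plin2 family, at -2.23 and -2.30 (0.027 and 0.021). Lpin1 had -1.83 and -1.76 with LPS and -1.33 and -2.35 with poly(I:C), against 2.67 and 2.38 in untreated cells.

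Fatty acid oxidation genes had the lowest median of the 6 lists, at -0.85 with LPS and -0.84 with poly(I:C) against 0.06 and 0.10 for all probes. Of 20 tested, 0 rose, 3 fell with LPS and 5 with poly(I:C), and 16 and 14 lay below 0. The shares of all probes called were 7.8% and 8.86%. Crat, which makes carnitine esters, fell, at -1.84 and -1.77 (limma adjusted p = 0.0084 and 0.010), as did Hadh, a dehydrogenase of the oxidation cycle, at -1.76 and -1.78 (0.022 and 0.019). Echs1, its hydratase, fell by 1.31 with poly(I:C) (0.023), and Ech1 and Acaa2 have been given. With the set as a block, 7 fell with LPS and 8 with poly(I:C), in fits that called 17.8% and 18.7% of all probes. With GW7845 averaged over both stimuli the list had a median of 0.13, with 5 of 20 below 0 and none called, and Acaa2 was its highest member at 0.80.

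**Figure D4:**
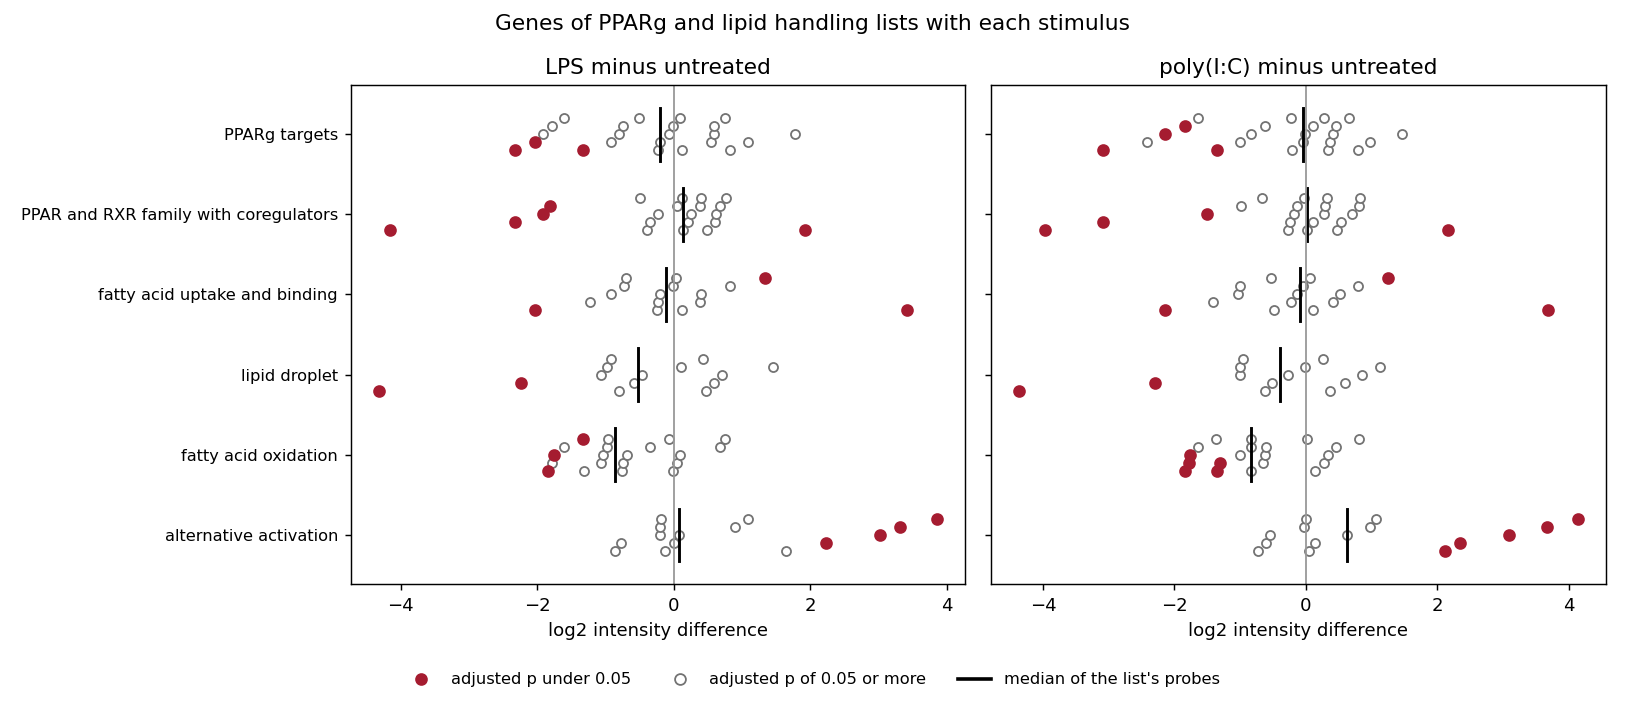
Log2 intensity difference from untreated cells with LPS (left) and poly(I:C) (right) of every tested gene of the 6 lists, filled where the adjusted p was under 0.05, with the list's median as a vertical bar. The medians lie between -0.85 and 0.14 with LPS and between -0.84 and 0.62 with poly(I:C), and fatty acid oxidation lies lowest in both.

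By Pearson's r over the 14 arrays after centring each set, the 10 of 8599 other named probes most like Pparg were Sel1l3 (0.98), Idh2, Rasa3 and Cd320 (0.97 each), Hnrnpl, Map1lc3b, Zmat3 and Chek2 (0.96 each), Sash3 and Lta4h (0.95 each). The arrays of a set share their missing probes and their dim end, and the 2 untreated arrays carry most of the spread. All 10 were lower with LPS than without treatment, from -1.18 for Cd320 to -3.58 for Chek2. Within the 12 stimulated arrays none of the 10 stayed among the 10 most like Pparg. By Spearman's rho 2 of them stayed, and without centring 6. Among the target genes, Acaa2 had r = 0.68 (rank 757), Fabp4 0.61 (rank 992), Plin2 0.29 (rank 2267) and Cd36 -0.20 (rank 4948). Within the 12 stimulated arrays Fabp4 had r = -0.63.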

How the data were processed

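RNA of mouse macrophages was measured on 14 one-colour arrays, grouped by their titles. The deposited series table holds 1 intensity for each of 10012 probes and array, which the authors had scaled to an array median of 1; how they made and corrected these intensity values is not given in the sources used here. Up to 0.421% of the values on an array were not above 0. Intensities under 0.0686, the 5th percentile of the positive values, were set to it before the log2 was taken. The 9584 probes above the 20th percentile of their array on at least 2 arrays were fitted in limma 3.58.1 (R 4.3.3) as 7 group means over all 14 arrays, with an intensity trend, two-sided tests and Benjamini-Hochberg adjustment over all probes; this step was tested on simulated data. SEs and intervals come from that fit and include the difference between array sets. The exceptions are the SEs given for the fit with the set as a block and without GW7845 + poly(I:C) 1. The series text calls the 2 arrays of a group biological replicates. Alternatives were quantile normalization, other floors and filters, array set or replicate number as a block, leaving out arrays, fitting only the groups compared, and other variance estimates. The genes and lists were chosen with earlier results of these data known. Named were the 5 genes, listed genes that were called (at most 6 a list), the 10 probes most like Pparg and 3 check genes. A further check gene, Abca1, was 2.31 higher with GW3965 averaged over both stimuli (limma adjusted p = 0.025). Single cell type markers, such as Lyz2, Adipoq and Kdr, were named by their level or call. The other receptors, Lpl and Fabp5 were named after their values were seen, as were Arg1, Mrc1, Chil3 and Retnla. Symbols and loci come from the platform annotation and RefSeq on GRCm38.p6. Promoters were scanned in Python 3; figures were drawn with matplotlib.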

Additional observations from a re-analysis of the deposited data

How the results depend on the processing

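Values within 1 SE of 0 (43 of 95) were taken to have no direction, so for these only the side of the threshold was compared. Over all alternatives, 294 of the recomputed Acaa2 values kept their direction and side, 16 passed the test newly, 8 no longer passed and 2 changed sign. For Fabp4, 311 kept them, 4 passed newly and 5 no longer passed. For Plin2, 318 kept them and 2 passed newly. For Cd36 and for Pparg, 319 each kept them and 1 each passed newly. The falls of Pparg with LPS and with poly(I:C) passed the limma test under every alternative. Among the 5 genes, 4 were called with LPS (against 2) when the array set was a block and GW7845 + poly(I:C) 1 was left out, an alternative chosen after seeing the data; the same fit called 4 for GW7845 with LPS against untreated cells (against 2), 2 for GW7845 with poly(I:C) against untreated cells (against 1), and 1 for GW3965 averaged over both stimuli, Pparg at 1.03 (adjusted p = 0.048, against 0.37). For GW7845 with poly(I:C) against untreated cells, 2 were called with quantile normalization, 2 with the replicate block and 3 with the array set as a block. With only the groups compared, 1 rather than 3 was called with poly(I:C), in a fit with fewer arrays. Leaving out GW7845 + poly(I:C) 1 gave 3 calls with LPS, for GW3965 with LPS and for GW3965 with poly(I:C) against untreated cells (against 2 each). Leaving out 1 array of the compared groups at a time gave 1 to 2 calls for LPS, 1 to 2 for GW7845 with LPS against untreated cells and 1 to 2 for GW7845 with poly(I:C) against untreated cells, a range of -0.29 to 1.55 for Acaa2 with GW7845 and poly(I:C) against poly(I:C), and a range of -0.05 to 0.88 for Acaa2 between the agonists. Except where an alternative's own construction shows it, the cause was not tested.

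The replicate numbers of the titles were not taken to pair the arrays of all 7 groups: deviations from the group means correlated at 0.354 to 0.672 between same-numbered arrays of 6 groups, but at -0.540 to -0.392 where GW7845 with LPS was one of the pair. The numbers of that group thus run opposite to the others; whether its titles are crossed is not known, and nothing was relabelled. With the replicate block, 13 probes were called for GW3965 with LPS (3 without it), 3 for GW3965 with poly(I:C) (1), 35 for GW3965 averaged (19), 966 for GW7845 with LPS against untreated cells (628), 907 for GW3965 with LPS against untreated cells (581) and 992 for GW3965 with poly(I:C) against untreated cells (635). The array set as a block called 1702 probes with LPS (748 without it), 1790 with poly(I:C) (849), 110 with GW3965 averaged (19), 39 with GW3965 and LPS (3), 45 between the agonists averaged (10), 1690 for GW7845 with LPS against untreated cells (628) and 1593 for GW7845 with poly(I:C) (723). Quantile normalization called 10 with GW3965 and LPS (3), and a fit without the intensity trend called 3 with GW3965 averaged (19). The half-site was in 4 of the 5 promoter windows also without the bases after the start, where all windows held it in 14%. Quantile normalization moved the median difference of all probes to -0.08 with LPS, against 0.06 without it, and to -0.08 with poly(I:C), against 0.10. No detection calls were used, so signal over background was judged from the level alone.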

Other observations

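Genes linked to alternative macrophage activation, a program with which PPARγ is associated, rose with the stimuli where they were called in the fit without a block. Of 15 tested, 4 rose and 0 fell with LPS, and 5 rose and 0 fell with poly(I:C), where 7.8% and 8.86% of all probes were called. The list median was 0.08 and 0.62, against 0.06 and 0.10 for all probes, and 6 and 5 genes lay below 0. Arg1, Mrc1, Chil3 and Retnla were tested in this list and were not called with either stimulus. With the array set as a block, among 17.8% and 18.7% of probes, Stat6, which carries the interleukin-4 signal, was called too, at -0.86 with LPS and -0.73 with poly(I:C) (limma adjusted p = 0.020 and 0.042). The block also added Ccl24 with LPS, 1.64 higher (limma adjusted p = 0.0070), and Klf4 with poly(I:C), 1.07 higher (0.039). The receptor antagonist gene Il1rn was 3.86 and 4.13 higher on the log2 scale (limma adjusted p = 0.0033 and 0.0018), and the cytokine gene Il10 3.03 and 3.08 higher (0.0044 and 0.0034). The chemokine genes Ccl17, at 3.32 and 3.67 (0.036 and 0.018), and Ccl22, at 2.24 and 2.12 (0.0025 and 0.0032), rose too, and Ccl24 rose by 2.35 with poly(I:C) (0.015). Several of these genes are also known to be induced by Toll-like receptor ligands.

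With GW3965 averaged over both stimuli, 6 listed genes passed the test with the array set as a block (1.15% of all probes called) but not in the fit of all arrays without it (0.198%). Lpl, the lipoprotein lipase, was 1.07 higher (limma adjusted p = 0.011 with the block and 0.29 without it), Acsl3, an acyl-CoA synthetase, 1.43 higher (0.022 and 0.13, and 0.0495 without the block and without GW7845 + poly(I:C) 1), and Plin3 1.33 higher (0.043 and 0.55). Il10 was 1.22 lower (difference -1.22, 0.016 and 0.73), Klf4 1.24 lower (-1.24, 0.024 and 0.33) and Ccl24 1.24 lower (-1.24, 0.042 and 0.60). Each of the 6 differed in the same direction in both sets.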
